A study of Mus musculus with 19 samples.

Results

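The JAK1 inhibitor (code 3404) was compared with the JAK3 inhibitor (code 6226) at the 2 doses where both had samples in duplicate, 0.25 and 1 µM. The comparison took 8 of the 19 samples of the series, chosen by the compound and dose in the labels: 2 samples of the JAK1 inhibitor at 0.25 µM, 2 at 1 µM, and likewise 2 of the JAK3 inhibitor at each dose. All 8 were natural killer (NK) cells taken from the spleens of male C57BL/6 mice, 6 weeks old, by removing the other cells (negative selection), and kept for 8 h with interleukin-2 (IL-2, 250 U/ml) plus the inhibitor. IL-2 alone (4 samples) and untreated cells (3 samples, 1 of them with no time in its label) served to show which genes answered to IL-2. Each sample was read on 1 Affymetrix Mouse Gene 1.0 ST array, and all levels below are log2 of the deposited intensity. No label says whether a group's samples are separate mice, pools or cultures. The p-values therefore rest on sample-to-sample spread that could be technical. Both compounds are known here only by their codes and their named targets.

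IL-2 signals in NK cells through a receptor whose beta chain binds the kinase JAK1 and whose common gamma chain binds JAK3. The pair of kinases phosphorylates STAT5, which moves to the nucleus and binds gamma-activated sites, and STAT5 target genes include feedback inhibitors of the SOCS family, survival genes and cytotoxic effector genes. JAK1, without JAK3, also serves the receptors of type I interferon and of interferon-gamma. Type I interferon signalling ends at interferon-stimulated response elements in the promoters of antiviral genes.

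The deposited intensities lay on 2 value scales. Sample medians were 7.49 to 7.59 in 7 samples (the high-intensity set) and 5.70 to 5.90 in 12 samples (the low-intensity set). In each of the 4 inhibitor groups replicate 1 was in the high-intensity set and replicate 2 in the low-intensity set. A JAK1 and a JAK3 inhibitor sample of the same dose and set therefore formed a matched pair, and the comparison rested on 4 such pairs. The estimate for a gene was the mean of its pair differences, JAK1 minus JAK3 inhibitor, tested with limma over all 19752 genes. A gene was called at a Benjamini-Hochberg adjusted p under 0.05, and values after ± are standard errors of log2 differences unless an SD is named. With so few arrays a group, every value has limited precision.

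In NK cell markers the 2 pairs at 1 µM were unlike each other. JAK1 inhibitor 1 µM replicate 1 had a mean level over 12 NK cell markers of 10.91, close to the 10.99 of the 0.25 µM sample in its set, against 9.95 in JAK3 inhibitor 1 µM replicate 1. Its companion, JAK1 inhibitor 1 µM replicate 2, had 7.96, against 7.95 in JAK3 inhibitor 1 µM replicate 2. In these markers the 1 µM pairs therefore differed from each other more than the 0.25 µM pairs did, which does not show which sample departed. Over all 334 IL-2-induced genes, the JAK1 inhibitor samples at 1 µM kept 12.1% and 15.7% of the IL-2 change (described below). The JAK3 inhibitor samples lay further apart, at -12.0% and 19.2% for 1 µM and 14.4% and 41.0% for 0.25 µM. Calls of described genes that ended without JAK1 inhibitor 1 µM replicate 1 are pointed out, and many ended without other samples too. NK cell markers were above the array median in 11 or 12 of 12 cases in each of the 8 samples, Ncr1, the gene of the receptor NKp46, among them. All 14 B cell markers and 12 to 14 of 16 macrophage and monocyte markers were above it too, so RNA of other spleen cells was measured along with that of NK cells.

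Averaged over both doses, 42 genes differed between the inhibitors (0.213% of 19752 genes tested). Genes of NK cell effector function and receptors were higher with the JAK1 inhibitor than with the JAK3 inhibitor, led by Gzmb, Klrb1a, Ifng, Xcl1 and Ncr1, at 4.70, 4.08, 3.41, 3.19 and 2.83 times the JAK3 inhibitor level. Type I interferon-stimulated genes and receptor genes known from myeloid cells were lower with the JAK1 inhibitor, led by Slfn5 (3.21 times lower), Ifit1 (2.44 times) and Irf7 (2.38 times). Of the 42 genes, 30 were higher (0.152% of genes) and 12 lower (0.0608%), and 12 of the higher and 4 of the lower differed at least 2-fold. At an unadjusted p under 0.05 there were 750 genes, and the median difference of all genes was 0.02. With the replicate number as a block and only the 8 inhibitor samples fitted, limma called 440 genes, 196 higher and 244 lower, and with the block added to the fit of all samples it called 127 (69 higher, 58 lower). All 42 were among the calls of both blocked fits, which give the same estimates as the main fit. In the 8 samples the block is the value scale, which the main fit already holds, and the spread comes from those samples alone. The overlap is therefore no independent support. A test of the 4 pair differences against 0 called 33 genes, 19 higher and 14 lower, with 24 of the 42 among them, and an additive fit of the 8 samples called 28, 15 higher and 13 lower, with 20 of the 42. Quantile normalization of the arrays gave 140 calls, 75 higher and 65 lower, and centring each array on its median with no term for the value scale gave 6, 5 higher and 1 lower. Without JAK1 inhibitor 1 µM replicate 1 the count was 20, of which 12 were higher and 8 lower, and 17 of these were among the 42.

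Short stretches of promoter sequence are shown for genes at both ends of the comparison, because the motifs of the STAT and interferon pathways in them were unequally spread over the 2 gene groups. Of 30 genes higher with the JAK1 inhibitor, 23 had a promoter window (250 bases before to 50 after the transcription start, RefSeq, GRCm38.p6), and of 12 lower genes 9 had one. The interferon-stimulated response element core, GAAA, any 2 bases and GAAA on either strand, was in 4 of the 9 windows of lower genes (44.4%; Clec4d, Ifi207, Ifit1 and Slfn5), in 1 of the 23 windows of higher genes (4.35%; Socs1), and in 3.88% of 15435 windows of all genes tested. The gamma-activated site TTCNNNGAA, which reads the same on both strands, was in 6 of the 23 windows of higher genes (26.1%; Clnk, Gzmb, Ifng, Klrb1f, Nkg7 and Tnfrsf9), in 0 of the 9 of lower genes, and in 8.97% of all. The motifs were counted separately, and none of the genes named held both. A match describes the letters only; binding was not measured. These windows of 120 bases lie before the transcription start, 5′ to 3′ on the strand of the gene, with the motif in capitals; the first 3 genes were lower and the other 4 higher with the JAK1 inhibitor.
Ifit1: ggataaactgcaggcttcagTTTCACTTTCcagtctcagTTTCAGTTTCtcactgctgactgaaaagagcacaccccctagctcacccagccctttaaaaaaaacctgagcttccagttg
Slfn5: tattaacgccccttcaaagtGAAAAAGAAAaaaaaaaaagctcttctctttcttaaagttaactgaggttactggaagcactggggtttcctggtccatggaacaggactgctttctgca
Ifi207: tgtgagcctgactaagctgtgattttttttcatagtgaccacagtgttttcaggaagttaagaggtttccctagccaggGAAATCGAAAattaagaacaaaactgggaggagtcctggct
Ifng: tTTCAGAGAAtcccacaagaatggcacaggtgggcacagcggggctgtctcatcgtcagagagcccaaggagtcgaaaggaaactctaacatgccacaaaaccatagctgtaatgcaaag
Clnk: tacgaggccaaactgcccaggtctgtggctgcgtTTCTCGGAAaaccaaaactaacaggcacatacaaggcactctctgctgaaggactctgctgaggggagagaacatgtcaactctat
Nkg7: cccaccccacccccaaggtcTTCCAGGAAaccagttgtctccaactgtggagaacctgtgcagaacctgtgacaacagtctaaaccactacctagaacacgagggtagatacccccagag
Tnfrsf9: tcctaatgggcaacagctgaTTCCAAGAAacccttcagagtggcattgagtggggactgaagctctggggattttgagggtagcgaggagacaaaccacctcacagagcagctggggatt

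The Ifit1 window, chr19:34640765-34640884 (+ strand), holds 2 copies of the response element core, the first 104 bases before the start, both read on the opposite strand. Slfn5 has 1 copy 155 bases before the start, in chr11:82951927-82952046 (+ strand), and Ifi207 has 1 copy 41 bases before it, in chr1:173741810-173741929 (- strand). The gamma-activated site lies 249 bases before the start of Ifng in chr10:118440796-118440915 (+ strand) and 86 bases before that of Clnk in chr5:38876694-38876813 (- strand). It lies 220 bases before the start of Nkg7 in chr7:43436898-43437017 (+ strand) and 136 bases before that of Tnfrsf9 in chr4:150927843-150927962 (+ strand). The Slfn5, Clnk and Tnfrsf9 windows fall inside the annotated span of their genes, which begins upstream of the start used.

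Gzmb, on chromosome 14 (56258836 to 56262334), encodes granzyme B, the protease that NK cells release into target cells. At 0.25 µM it stood at 12.53 and 10.28 with the JAK1 inhibitor (high- and low-intensity sample), against 9.06 and 7.76 with the JAK3 inhibitor. The 1 µM samples had 10.95 and 7.22 with the JAK1 inhibitor, against 8.13 and 7.09 with the JAK3 inhibitor. Levels with IL-2 alone were 13.40, 13.44, 12.17 and 12.03, and those of untreated cells 9.03, 5.88 and 6.80. Within each set the JAK1 inhibitor samples were above their JAK3 inhibitor partners in all 4 pairs, by little in the low-intensity pair at 1 µM (0.12). The averaged difference was 2.23 ± 0.32 (limma adjusted p = 0.0015), with 3.14 within the high-intensity and 1.32 within the low-intensity set, and 1.72 without JAK1 inhibitor 1 µM replicate 1 (adjusted p = 0.0226). At 0.25 µM alone Gzmb was 7.94 times higher with the JAK1 inhibitor.

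Further genes of the cytotoxic machinery were higher with the JAK1 inhibitor. Of 27 genes of cytotoxic granules and death ligands, 4 were higher and 0 lower in the averaged test, with a median difference of 0.11: Gzmb, the perforin gene Prf1 (1.04 ± 0.21, adjusted p = 0.0477), the granule membrane gene Nkg7 (1.08 ± 0.15, adjusted p = 0.00141) and the death ligand gene Fasl (0.91 ± 0.14, adjusted p = 0.00351). Nkg7 had 13.03 and 11.12 at 0.25 µM of the JAK1 inhibitor, against 11.40 and 9.58 at 0.25 µM of the JAK3 inhibitor. Its 1 µM levels were 12.38 and 9.63 with the JAK1 inhibitor, against 11.20 and 9.65 with the JAK3 inhibitor, so the low-intensity pair at 1 µM did not separate. Prf1 showed the same shape, with 10.47 and 9.40 at 0.25 µM of the JAK1 inhibitor, against 9.49 and 7.16 at 0.25 µM of the JAK3 inhibitor, and 10.18 and 7.19 at 1 µM of the JAK1 inhibitor, against 9.11 and 7.32 at 1 µM of the JAK3 inhibitor. The call of Prf1 ended without JAK1 inhibitor 1 µM replicate 1 (adjusted p = 0.368), and that of Fasl as well (adjusted p = 0.0665). Outside the list, Serpinb9b, of the serpin clade of granzyme B inhibitors, rose (1.15 ± 0.17, adjusted p = 0.00194), and so did Cst7, the gene of the protease inhibitor cystatin F (0.88 ± 0.15, adjusted p = 0.00892). The call of Cst7 ended without JAK1 inhibitor 1 µM replicate 1 too (0.75). Calls also ended without other samples: of the 8 fits that left out a sample, Prf1 kept the call in 2, Cst7 in 3 and Fasl in 5.

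Ifng, the gene of interferon-gamma on chromosome 10 (118441046 to 118445894), had the smallest p of all genes in the averaged comparison. It stood at 10.48 and 8.69 with 0.25 µM of the JAK1 inhibitor, against 7.34 and 6.30 with 0.25 µM of the JAK3 inhibitor. The 1 µM samples had 8.50 and 6.64 with the JAK1 inhibitor, against 7.45 and 6.14 with the JAK3 inhibitor. IL-2 alone gave 11.09, 11.08, 10.27 and 9.90, and untreated cells 7.41, 6.27 and 6.09. With the JAK3 inhibitor Ifng lay near the untreated level of its set at both doses, and with 0.25 µM of the JAK1 inhibitor it lay between the untreated and the IL-2 level. The averaged difference was 1.77 ± 0.15 (adjusted p = 8.72e-06), and 1.61 without JAK1 inhibitor 1 µM replicate 1 (adjusted p = 0.000415). The difference was 2.76 ± 0.22 at 0.25 µM and 0.77 ± 0.22 at 1 µM.

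The chemokine gene Xcl1, whose product draws cross-presenting dendritic cells, had 10.94 and 9.91 at 0.25 µM of the JAK1 inhibitor, against 8.60 and 7.26 at 0.25 µM of the JAK3 inhibitor. At 1 µM the levels were 9.63 and 7.52 with the JAK1 inhibitor, against 8.51 and 6.94 with the JAK3 inhibitor. IL-2 alone gave 11.26, 11.31, 10.51 and 10.56. All 4 pairs were higher with the JAK1 inhibitor, by 1.67 ± 0.19 on average (adjusted p = 0.000136). Of 23 cytokine and chemokine genes 2 were higher and 0 lower in the averaged test (median 0.07), and 4 were higher at 0.25 µM: Ifng, Xcl1, the macrophage-attracting chemokine gene Ccl3 (1.38 ± 0.29, adjusted p = 0.0415) and the cytokine gene Osm (0.81 ± 0.16, adjusted p = 0.0269).

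NK cell receptor genes had the highest median difference of the 21 response lists. Of 30 measured, 7 were higher and 0 lower (Ncr1, Klrb1a, Klrb1c, Klrb1f, Klrc2, Klra3 and Cd244a), with a median of 0.45 against 0.02 for all genes, and 14 of 30 were higher in all 4 pairs, which 5% of all genes were. Ncr1, on chromosome 7, had 12.27 and 10.51 at 0.25 µM of the JAK1 inhibitor, against 10.20 and 8.40 at 0.25 µM of the JAK3 inhibitor. Ncr1 at 1 µM had 11.46 and 8.60 with the JAK1 inhibitor, against 9.85 and 8.36 with the JAK3 inhibitor. IL-2 alone gave 12.11, 12.04, 10.46 and 10.41, and untreated cells 10.05, 7.88 and 8.14. With 0.25 µM of the JAK1 inhibitor Ncr1 was thus at or above the IL-2 level of its set, while with the JAK3 inhibitor it was near the untreated level. Over both doses Ncr1 differed by 1.503 ± 0.169 (adjusted p = 0.000136), and 1.23 without JAK1 inhibitor 1 µM replicate 1 (adjusted p = 0.00151).

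Klrb1a, of the NKR-P1 family of C-type lectin receptors, had 10.39 and 7.80 at 0.25 µM of the JAK1 inhibitor, against 7.19 and 5.70 at 0.25 µM of the JAK3 inhibitor. At 1 µM the values were 9.22 and 5.95 with the JAK1 inhibitor, against 6.84 and 5.52 with the JAK3 inhibitor. With IL-2 alone it had 10.52, 10.39, 7.87 and 7.94. The averaged difference was 2.03 ± 0.24 (adjusted p = 0.000237), with 2.79 in the high-intensity and 1.27 in the low-intensity set, and 1.70 without JAK1 inhibitor 1 µM replicate 1 (adjusted p = 0.0048). Klrb1c, the gene of the NK1.1 antigen, rose by 1.27 ± 0.23 (adjusted p = 0.015), and Klrb1f by 0.99 ± 0.14 (adjusted p = 0.00147). The 3 genes lie on chromosome 6 between 128609227 and 129059724, and signal shared among the probe sets of these paralogues was not tested. The call of Klrb1c ended without JAK1 inhibitor 1 µM replicate 1 (0.86), as did those of Klrc2, Klra3 and Cd244a (0.59, 0.82 and 0.58). These calls also ended without other samples. In the 8 fits that left out a sample, Klrb1c and Klra3 each kept the call in 1, Cd244a in 2 and Klrc2 in 0. Beside these genes, 5 of 12 NK cell markers were higher and 0 lower, of which Ncr1, Klrb1c, Prf1, Nkg7 and Cd244a are already named. In bulk samples like these, fewer NK cells and less RNA of a gene per NK cell cannot be told apart.

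**Figure D1:**
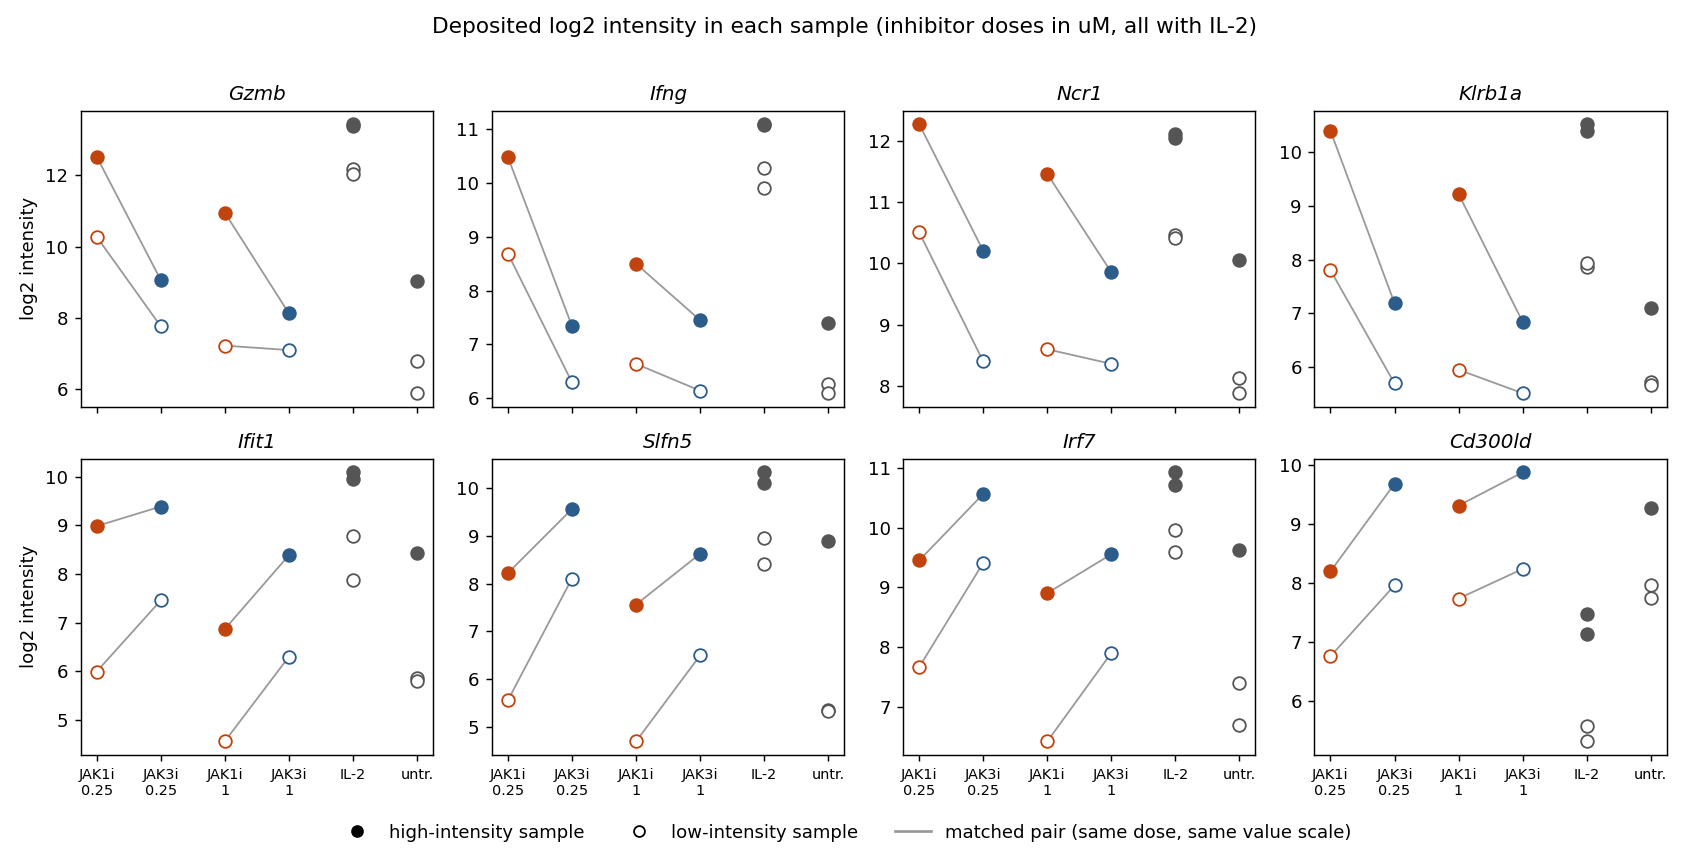
Deposited log2 intensity (y axis) of 8 genes in each sample, with the JAK1 inhibitor (JAK1i) left of the JAK3 inhibitor (JAK3i) at 0.25 and 1 µM, then IL-2 alone and untreated cells. Filled points are high-intensity and open points low-intensity samples, and grey lines join matched pairs. For Gzmb, Ifng, Ncr1 and Klrb1a the lines slope down in all 4 pairs, least in the low-intensity pair at 1 µM, and for Ifit1, Slfn5, Irf7 and Cd300ld they slope up in all 4.

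Genes of the IL-2/STAT5 response were split between those higher with the JAK1 inhibitor and those that did not pass. Of 40 measured, 8 were higher and 0 lower in the averaged test (median 0.19): Gzmb, Ifng, Prf1, the costimulatory receptor gene Tnfrsf9, the survival gene Bcl2, the cyclin gene Ccnd2, the feedback inhibitor gene Socs1 and the transcriptional regulator gene Id2. Tnfrsf9 had 10.75 and 9.63 at 0.25 µM of the JAK1 inhibitor, against 9.16 and 7.97 at 0.25 µM of the JAK3 inhibitor. Tnfrsf9 at 1 µM had 10.09 and 7.81 with the JAK1 inhibitor, against 8.71 and 7.41 with the JAK3 inhibitor, and IL-2 alone gave 11.78, 12.10, 11.06 and 10.98. All 4 pairs were higher, by 1.26 ± 0.17 on average (adjusted p = 0.00141). Bcl2 rose by 0.98 ± 0.15 (adjusted p = 0.00431) and Socs1 by 0.66 ± 0.13 (adjusted p = 0.0266), and both calls ended without JAK1 inhibitor 1 µM replicate 1 (adjusted p = 0.0812 and 0.198). Those of Ccnd2 and Id2 ended without it as well (adjusted p = 0.368 and 0.222), and each was kept in 1 of the 8 fits that left out a sample. Bcl2 kept its call in 5 of these 8 fits and Socs1 in 0. Cish, another SOCS family feedback gene, was 0.93 ± 0.18 higher at 0.25 µM (adjusted p = 0.0253) and had 0.55 ± 0.13 on average (adjusted p = 0.122). Il2ra, the high-affinity receptor chain gene, gave 0.46 ± 0.17 (adjusted p = 0.774), Myc 0.66 ± 0.18 (adjusted p = 0.201), Socs2 0.20 ± 0.14, Pim1 0.05 ± 0.18 and the IL-7 receptor gene Il7r -0.61 ± 0.15 (adjusted p = 0.15). None of these 5 passed, nor did the components Jak1 (-0.06 ± 0.11), Il2rb (0.42 ± 0.15), Stat5a (0.03 ± 0.15) and Stat5b (-0.01 ± 0.16).

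Further genes higher with the JAK1 inhibitor carry signalling roles. Clnk, which encodes an immune cell adaptor of the SLP-76 family, had 10.23 and 7.36 at 0.25 µM of the JAK1 inhibitor, against 7.58 and 5.65 at 0.25 µM of the JAK3 inhibitor. Its 1 µM levels were 8.79 and 5.94 with the JAK1 inhibitor, against 7.70 and 5.47 with the JAK3 inhibitor. The 4 pairs were all higher, by 1.48 ± 0.16 on average (adjusted p = 0.000127). Spred2, an inhibitor of the Ras and MAP kinase pathway, rose by 1.10 ± 0.14 (adjusted p = 0.000737), and the exocytosis gene Sytl2 by 0.80 ± 0.15 (adjusted p = 0.0241). The call of Sytl2 was kept in 2 of the 8 fits that left out a sample and ended without JAK1 inhibitor 1 µM replicate 1 (0.67, adjusted p = 0.226). Of the 30 genes higher with the JAK1 inhibitor, 28 were induced at least 2-fold by IL-2 and 0 were repressed, and the remaining 2 were Klrc2 and Tmsb15a. The comparison of IL-2 with untreated cells uses none of the 8 inhibitor samples in its contrast and called 1808 genes (9.15%), 1296 higher (6.56%) and 512 lower (2.59%), of which 334 were induced and 120 repressed at least 2-fold; quantile normalization moved this split to 1447 and 1238.

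Type I interferon-stimulated genes went the other way. Of 36 measured, 0 were higher and 5 lower (Slfn5, Ifit1, Irf7, Rtp4 and Oas2). All 36 had a difference below 0, as had 8606 of all 19752 genes. The median was -0.56 against 0.02 for all genes, and 22 of 36 were lower in all 4 pairs, which 2.91% of all genes were. Slfn5, of the Schlafen family, had 8.22 and 5.56 at 0.25 µM of the JAK1 inhibitor, against 9.56 and 8.10 at 0.25 µM of the JAK3 inhibitor. Slfn5 at 1 µM had 7.56 and 4.70 with the JAK1 inhibitor, against 8.62 and 6.50 with the JAK3 inhibitor. IL-2 alone gave 10.11, 10.32, 8.96 and 8.40, and untreated cells 8.89, 5.36 and 5.35. Each JAK1 inhibitor sample was below its partner, and at 1 µM below the untreated samples of its set too. The averaged difference was -1.68 ± 0.28 (adjusted p = 0.00892), with -1.20 within the high-intensity and -2.17 within the low-intensity set.

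Ifit1, an antiviral RNA-binding protein gene on chromosome 19 (34640889 to 34650009), had 8.99 and 5.99 at 0.25 µM of the JAK1 inhibitor, against 9.39 and 7.46 at 0.25 µM of the JAK3 inhibitor. At 1 µM it had 6.86 and 4.55 with the JAK1 inhibitor, against 8.38 and 6.29 with the JAK3 inhibitor. IL-2 alone gave 10.10, 9.95, 8.78 and 7.87, and untreated cells 8.44, 5.85 and 5.80. Ifit1 was lower with the JAK1 inhibitor in all 4 pairs and was the only one of the 12 lower genes whose difference was larger at 1 µM (-1.63 ± 0.29) than at 0.25 µM (-0.94 ± 0.29). Its averaged difference was -1.28 ± 0.21 (adjusted p = 0.00545). The 1 µM difference of Ifit1 had the smallest adjusted p of that dose, 0.364.

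Irf7, the gene of the transcription factor that drives type I interferon production, had 9.45 and 7.66 at 0.25 µM of the JAK1 inhibitor, against 10.57 and 9.41 at 0.25 µM of the JAK3 inhibitor. At 1 µM the levels were 8.90 and 6.42 with the JAK1 inhibitor, against 9.55 and 7.90 with the JAK3 inhibitor. Over both doses Irf7 differed by -1.25 ± 0.24 (adjusted p = 0.0259). Rtp4 fell by 1.22 ± 0.24 on the log2 scale (adjusted p = 0.038) and Oas2, an RNA-sensing oligoadenylate synthetase, by 0.98 ± 0.19 (adjusted p = 0.038). Ifi207, of the interferon-inducible HIN-200 family and outside the list, fell by 0.85 ± 0.15 (adjusted p = 0.0169). List members with differences of like size did not pass, among them Ifit3 (-1.30 ± 0.28, adjusted p = 0.0757), Oasl2 (-1.01 ± 0.23, adjusted p = 0.103) and Rsad2 (-0.99 ± 0.26, adjusted p = 0.181). Of the 36 genes, 31 were below 0 within the high-intensity set, as were 11041 of all 19752 genes. Within the low-intensity set 36 were below 0, as were 8060 of all genes. The median difference of the 36 genes was -0.33 in the high-intensity and -1.08 in the low-intensity pair at 0.25 µM, and -0.26 and -0.66 in the pairs at 1 µM. Each interferon call was lost when some of the 8 samples were left out: Ifit1 and Slfn5 kept it in 4 of 8 cases, Irf7, Rtp4 and Oas2 in 2, and Ifi207 in 1. Without JAK1 inhibitor 1 µM replicate 1 the calls of Slfn5 (-1.84, adjusted p = 0.0316), Irf7 (-1.47, adjusted p = 0.0316) and Ifit1 (-1.31, adjusted p = 0.0496) remained, and those of Rtp4, Oas2 and Ifi207 ended (adjusted p = 0.122, 0.137 and 0.134).

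Genes that answer mainly to interferon-gamma had a median difference near 0. Of 22 measured, 1 (Socs1) was higher and 0 were lower, with a median of 0.00 and 11 of 22 above 0. The chemokine gene Cxcl10 gave -0.55 ± 0.25 (adjusted p = 1).

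The other 6 lower genes encode receptors known from myeloid cells. Cd300ld, a receptor of the CD300 family, had 8.20 and 6.76 at 0.25 µM of the JAK1 inhibitor, against 9.68 and 7.96 at 0.25 µM of the JAK3 inhibitor. At 1 µM it had 9.32 and 7.74 with the JAK1 inhibitor, against 9.88 and 8.24 with the JAK3 inhibitor. IL-2 alone gave 7.49, 7.14, 5.58 and 5.32, and untreated cells 9.28, 7.75 and 7.96. The 0.25 µM JAK1 inhibitor samples were thus between the IL-2 and the untreated level, and the JAK3 inhibitor samples at or above the untreated level. The mean of the pairs was -0.94 ± 0.13 (adjusted p = 0.00147). Clec4d, a C-type lectin receptor gene (-0.83 ± 0.12, adjusted p = 0.0015), the inhibitory receptor gene Cd300a (-0.74 ± 0.11, adjusted p = 0.00194), Adgre4 (-0.90 ± 0.18, adjusted p = 0.038), the RNA sensor gene Tlr13 (-0.65 ± 0.12, adjusted p = 0.0259) and the scavenger receptor gene Msr1 (-0.62 ± 0.13, adjusted p = 0.0457) completed the group. The calls of Adgre4, Tlr13 and Msr1 ended whichever of the 8 samples was left out (adjusted p = 0.179, 0.0783 and 0.163 without JAK1 inhibitor 1 µM replicate 1). All 6 had been repressed at least 2-fold by IL-2. Of the 42 genes, 14 kept the call without each of the 8 samples in turn: Gzmb, Klrb1a, Ifng, Xcl1, Ncr1, Clnk, Tnfrsf9, Serpinb9b, Spred2, Nkg7, Klrb1f, Cd300ld, Clec4d and Cd300a.

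Markers of other cells moved with these genes. Of 16 macrophage and monocyte markers, 1 (Adgre4) was lower on average and 7 were lower at 0.25 µM, 0 were higher, and the median difference was -0.46 on average and -0.76 at 0.25 µM. Their mean level was 9.10 and 7.56 at 0.25 µM of the JAK1 inhibitor, against 9.89 and 8.26 at 0.25 µM of the JAK3 inhibitor. At 1 µM it was 9.87 and 8.16 with the JAK1 inhibitor, against 9.93 and 8.37 with the JAK3 inhibitor. IL-2 alone gave 8.27 to 8.37 in the high-intensity and 6.96 to 7.07 in the low-intensity set, and untreated cells 9.94 in the high-intensity and 8.09 and 8.14 in the low-intensity set. The NK cell markers had mean levels of 10.99 and 9.01 at 0.25 µM of the JAK1 inhibitor, against 10.15 and 7.89 at 0.25 µM of the JAK3 inhibitor. Of the other marker lists, none had a called member in the averaged test: 15 neutrophil markers had a median of -0.22, 14 B cell markers -0.09, 15 dendritic cell markers -0.12, 10 basophil and mast cell markers -0.10, 7 erythroid and platelet markers -0.04 and 13 T cell markers 0.05. The part of cell composition in the differences between the inhibitors was not tested.

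**Figure D2:**
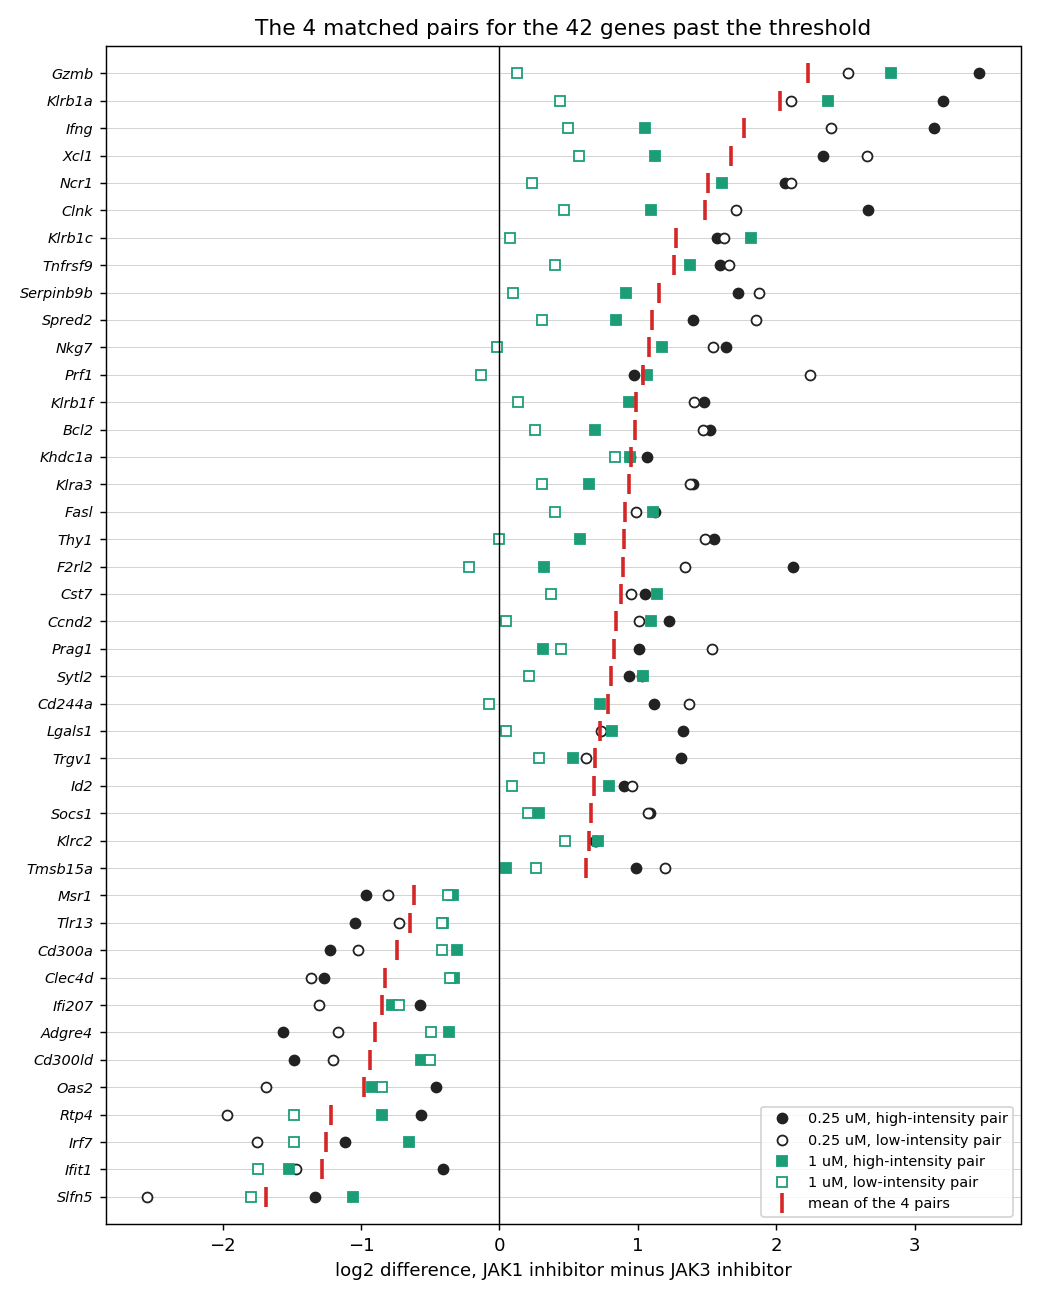
Log2 difference, JAK1 minus JAK3 inhibitor (x axis), in each of the 4 matched pairs for the 42 called genes (y axis), with the mean of the pairs as a red bar. Circles are 0.25 µM and squares 1 µM pairs, filled in the high-intensity and open in the low-intensity set. In 25 of the 30 higher genes all 4 pairs are above 0 (5% of all genes), and in all 12 lower genes all 4 are below 0 (2.91% of all genes). The 42 genes were called on the mean of these same pairs, so the shared sign is no independent support. In 28 of the 30 higher genes the open square lies left of the filled one, an order that 6813 of all 19752 genes had.

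By dose, genes were called at 0.25 µM only, though the test of a change between the doses (below) called 0 genes. At 0.25 µM limma called 89 genes (0.451%), 47 higher (0.238%) and 42 lower (0.213%). Of these, 33 of the higher and 30 of the lower differed at least 2-fold. Gzmb (2.99 ± 0.45), Ifng, Klrb1a (2.65 ± 0.34) and Xcl1 (2.50 ± 0.26) had the largest rises, followed by Clnk (2.18 ± 0.22) and Ncr1 (2.08 ± 0.24). The call counts were 1180 (304 higher, 876 lower) in the blocked fit of the 8 samples and 348 (119 higher, 229 lower) in the blocked fit of all samples. Centring on the array median with no scale term gave 8, 6 higher and 2 lower. Leaving out 1 sample, the count was 5 without JAK3 inhibitor 0.25 µM replicate 1, 19 without its replicate 2, and 20 and 23 without JAK1 inhibitor 0.25 µM replicates 1 and 2. Among the higher genes not called on average were the SH2 adaptor genes Sh2d1b1 (1.19 ± 0.26, adjusted p = 0.0433) and Sh2d1b2 (1.48 ± 0.29, adjusted p = 0.0269), which act below SLAM family receptors in NK cells, and the spermidine synthase gene Srm (1.01 ± 0.22, adjusted p = 0.0433).

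Of the 42 genes lower at 0.25 µM, 7 belong to the list of 16 macrophage and monocyte markers. After Slfn5 (-1.94 ± 0.40) and a small nucleolar RNA, the largest falls were in Nfam1 (-1.39 ± 0.23), the matrix proteoglycan gene Vcan (-1.39 ± 0.27), Adgre4 (-1.37 ± 0.25) and Cd300ld (-1.34 ± 0.19). Vcan had 8.55 and 8.60 at 0.25 µM of the JAK1 inhibitor, against 10.34 and 9.59 at 0.25 µM of the JAK3 inhibitor, and 10.39 and 9.98 at 1 µM of the JAK1 inhibitor, against 10.78 and 10.02 at 1 µM of the JAK3 inhibitor. The macrophage markers Cd14 (-1.32 ± 0.23, adjusted p = 0.0114), Csf1r (-1.17 ± 0.24, adjusted p = 0.0315), Adgre1 (-1.16 ± 0.21, adjusted p = 0.0147) and Cd68 (-1.10 ± 0.23, adjusted p = 0.0373) fell as well. At 1 µM these had 0.42, -0.02, -0.19 and -0.07. Of 120 genes repressed by IL-2, 26 were lower and 0 higher at 0.25 µM (21.7%), and 117 of 120 had a difference below 0. Of 334 induced genes, 37 were higher and 1 was lower (11.1% and 0.299%). Among the 19298 genes in neither class 10 were higher and 15 lower, and 10653 had a difference below 0.

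At 1 µM limma called 0 genes, with 167 at an unadjusted p under 0.05. The blocked fits called 4 and 1. The intervals were wide: the difference of Gzmb was 1.47 (95% interval 0.54 to 2.41), that of Klrb1a 1.40 (0.70 to 2.11), that of Ncr1 0.92 (0.42 to 1.42), that of Ifng 0.77 (0.32 to 1.23) and that of Slfn5 -1.43 (-2.26 to -0.60). These exclude 0 before adjustment, and each gene had adjusted p = 1. The intervals rest on a spread estimated over all 19 samples, so they do not show the gap between the 2 pairs. In the high- and low-intensity pair at 1 µM, Gzmb differed by 2.82 and 0.12, Klrb1a by 2.37 and 0.43 and Ncr1 by 1.60 and 0.24. Ifng differed by 1.05 and 0.50, and Slfn5 by -1.06 and -1.79. The 5 genes were also named from the averaged test, which holds these 1 µM samples. The intervals of Prf1 (-0.16 to 1.10), Socs1 (-0.13 to 0.62) and Cish (-0.22 to 0.54) include 0. The 30 genes higher on average were all above 0 at 1 µM and all larger at 0.25 µM, and their median difference was 1.40 and 1.44 in the high- and low-intensity pairs at 0.25 µM, and 0.94 and 0.25 at 1 µM. In 28 of 30 the high-intensity pair at 1 µM gave the higher difference, as in 6813 of all 19752 genes. These 30 genes were called on the mean of the same pairs. The 12 lower genes had medians of -1.08 and -1.33 at 0.25 µM and of -0.61 in both pairs at 1 µM. Whether the difference itself changed between the doses was tested as an interaction, and 0 genes passed (760 at an unadjusted p under 0.05). Ifng came closest, whose difference changed by -1.99 ± 0.31 from 0.25 to 1 µM (adjusted p = 0.0648). The blocked fit of the 8 samples called 542 genes in this test and that of all samples 17.

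Set against IL-2 alone, with which all inhibitor groups share their control samples, the inhibitors gave the following values. Ncr1 gave 0.13 (adjusted p = 0.875) with 0.25 µM of the JAK1 inhibitor and -1.95 (adjusted p = 3.47e-06) with 0.25 µM of the JAK3 inhibitor. Klrb1a gave -0.08 (adjusted p = 0.953) with the JAK1 inhibitor and -2.73 (adjusted p = 4.16e-06) with the JAK3 inhibitor at that dose, and Xcl1 gave -0.48 (adjusted p = 0.402) and -2.98 (adjusted p = 7.72e-08) in the same order. For Slfn5 the values were -2.56 (adjusted p = 0.000396) with 0.25 µM of the JAK1 inhibitor and -0.62 (adjusted p = 0.528) with 0.25 µM of the JAK3 inhibitor, and for Irf7 they were -1.74 (adjusted p = 0.00209) and -0.31 (adjusted p = 0.84). At 1 µM Slfn5 fell against IL-2 with both inhibitors, by a log2 difference of -3.31 with the JAK1 inhibitor (adjusted p = 2.34e-06) and -1.89 with the JAK3 inhibitor (adjusted p = 0.00126).

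**Figure D3:**
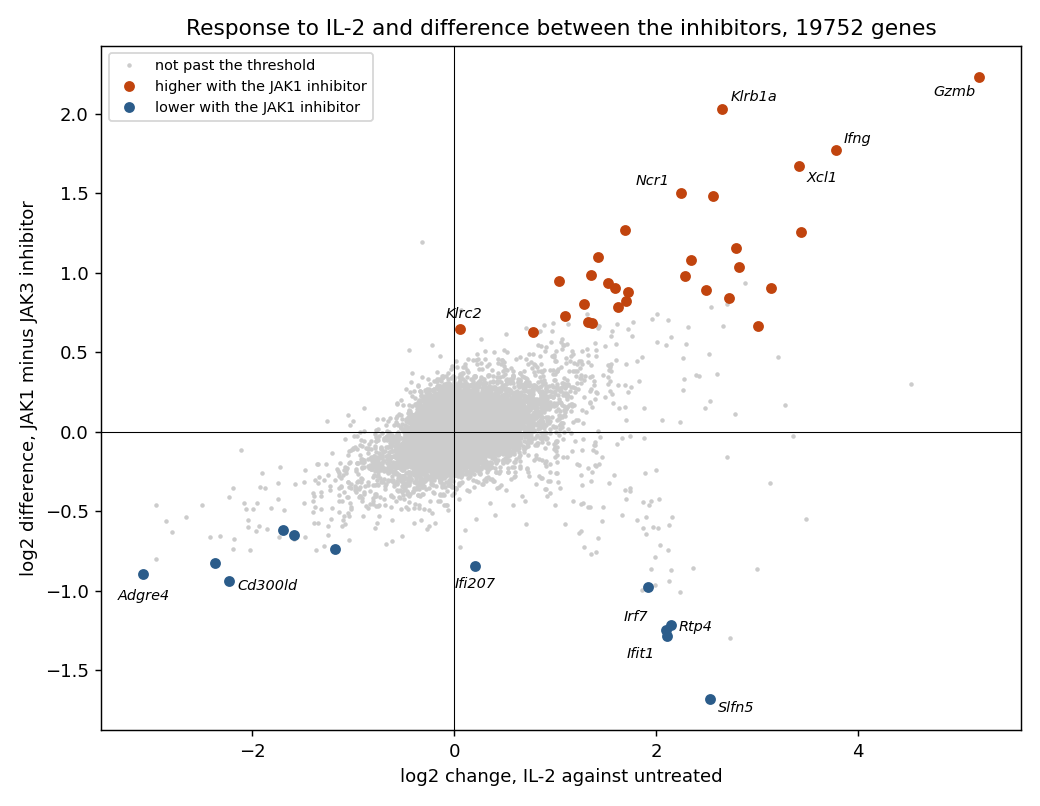
Log2 change of each of 19752 genes with IL-2 against untreated cells (x axis) and averaged log2 difference, JAK1 minus JAK3 inhibitor (y axis). Orange points are the 30 genes called higher and blue points the 12 called lower. All orange points but Klrc2 and Tmsb15a lie at an IL-2 induction of at least 2-fold, 5 blue points lie there too (Slfn5, Ifit1, Irf7, Rtp4 and Oas2), 6 lie on the left with Adgre4 and Cd300ld, and Ifi207 lies near the middle.

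The share of the IL-2 change left under each inhibitor was computed per sample over the IL-2-induced members of each list. It is a description with no test. Untreated cells of the same set stood at 0% and the IL-2 samples at 100%. In the high-intensity set the 0% level rests on 1 untreated sample, the one with no time in its label. For NK cell receptors (8 genes) the share was 95.7% ± 6.01 with 0.25 µM of the JAK1 inhibitor (SD, n = 2) and 4.66% ± 6.41 with 0.25 µM of the JAK3 inhibitor. At 1 µM it was 39.5% ± 36.1 with the JAK1 inhibitor, the mean of 65.03% and 13.98%, and -1.76% ± 13.2 with the JAK3 inhibitor. For cytotoxic granule and death ligand genes (12) it was 62.2% ± 1.66 with the JAK1 inhibitor and 9.78% ± 12.4 with the JAK3 inhibitor at 0.25 µM. For cytokines and chemokines (8) it was 68.1% ± 5.49 with the JAK1 inhibitor and 14.7% ± 4.53 with the JAK3 inhibitor at that dose. For type I interferon-stimulated genes (34) the order was turned, with 18.3% ± 6.47 at 0.25 µM of the JAK1 inhibitor and 60.4% ± 21.2 at 0.25 µM of the JAK3 inhibitor. At 1 µM these genes stood at -28.3% ± 27.4 with the JAK1 inhibitor and at 4.45% ± 25.2 with the JAK3 inhibitor. The JAK1 inhibitor samples had -47.6% in the high-intensity and -8.93% in the low-intensity set. The latter was close to the lower of the untreated samples of its set, which had -7.67% and 7.67%.

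Over all 334 induced genes 45.4% ± 3.31 of the change was left with 0.25 µM of the JAK1 inhibitor and 27.7% ± 18.8 with 0.25 µM of the JAK3 inhibitor, and 13.9% ± 2.56 and 3.59% ± 22.1 at 1 µM in the same order. Over genes induced at least 4-fold, 7.57% was left with 1 µM of the JAK1 inhibitor. The ranges of the 2 inhibitors did not overlap at 0.25 µM (43.1% and 47.8% against 14.4% and 41.0%) and overlapped at 1 µM (12.1% and 15.7% against -12.0% and 19.2%). Over the 120 repressed genes 49.3% ± 8.73 was left at 0.25 µM of the JAK1 inhibitor and 2.26% ± 8.65 at 0.25 µM of the JAK3 inhibitor. Of 44 ribosome biogenesis genes 0 were called, their median difference was 0.16, and 19 were higher in all 4 pairs, which 5% of all genes were. The share left in 19 of them was 25.4% ± 21.8 with the JAK1 inhibitor and 10.4% ± 15.2 with the JAK3 inhibitor at 0.25 µM. Interferon-gamma-responsive genes (14) had 46.1% ± 6.52 with the JAK1 inhibitor and 36.2% ± 15.6 with the JAK3 inhibitor at 0.25 µM. The 2 pairs went opposite ways, with 50.7% against 25.2% in the high-intensity set and 41.5% against 47.3% in the low-intensity set.

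**Figure D4:**
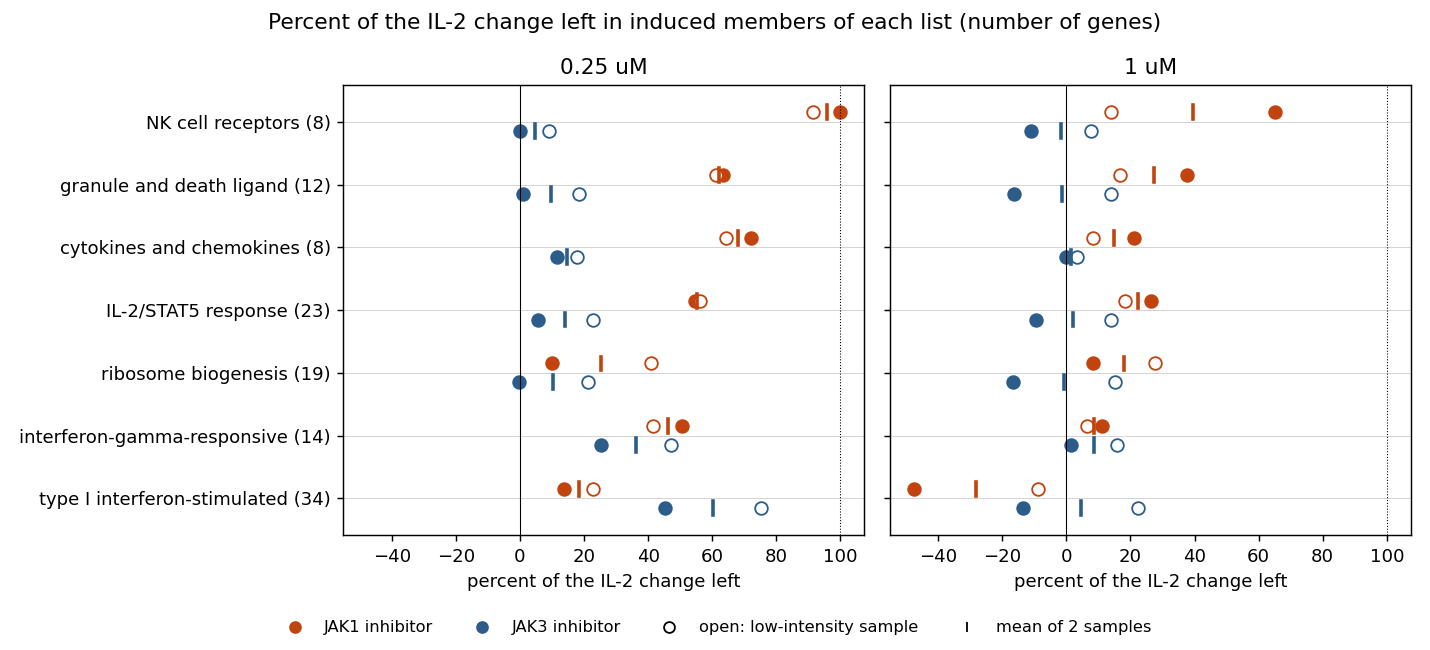
Percent of the IL-2 change left (x axis; 0 is untreated, 100 is IL-2) in each inhibitor sample for the IL-2-induced members of 7 lists (y axis, number of genes in brackets), at 0.25 µM and 1 µM. Orange is the JAK1 inhibitor, drawn above the JAK3 inhibitor in blue; filled points are high-intensity and open points low-intensity samples, and ticks are means of 2. At 0.25 µM the orange points lie right of the blue ones for receptors, granule genes, cytokines and the IL-2/STAT5 response and left of them for type I interferon-stimulated genes.

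The remaining response lists held few called genes in the averaged test. Of 37 genes of G1/S and DNA replication 1 (Ccnd2) was higher, of 26 NK cell transcription factor genes 1 (Id2), and of 18 genes of the BCL2 family and apoptosis 1 (Bcl2). The T-box factor gene Tbx21 gave 0.68 ± 0.18 (adjusted p = 0.182) and Eomes 0.41 ± 0.15 (adjusted p = 0.786). No member was called in the lists of polyamine, nucleotide and one-carbon synthesis (24 genes, median 0.09), translation initiation (16, 0.04), chaperones (33, 0.09), glycolysis (22, -0.03), amino acid transport (22, 0.10), sterol and fatty acid synthesis (22, -0.01), G2/M (29, -0.01), NF-kappaB (18, -0.11), immediate early genes (26, 0.07), FOXO and quiescence (29, -0.08) and JAK-STAT components (27, -0.03).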

How the data were processed

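The authors deposited linear intensities for each of 19 Affymetrix Mouse Gene 1.0 ST arrays, made with Affymetrix Power Tools and RMA (background correction, normalization and probe summary in one procedure), per the submitters' processing notes. No version is stated. RMA shares information across the arrays processed together, and no source used here says why the values lie on 2 scales; levels were set side by side within a scale. The log2 of the intensity was taken with no further normalization, 21425 of 24922 probe sets had 1 gene symbol, and the brightest probe set of a gene was kept, giving 19752 genes. No gene was filtered on intensity.

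A model with a mean per group and a term for the value scale was fitted to all 19 samples with limma 3.58.1 in R 4.3.3 (lmFit, then eBayes with an intensity trend), and Benjamini-Hochberg adjustment ran over all 19752 genes at a threshold of 0.05. Tables and figures were made with Python 3.11.15, pandas 2.3.3, numpy 2.4.6 and matplotlib 3.10.9. The fitting code was tested on simulated data. Samples with the same replicate number deviated together across groups (correlations of deviations 0.661 to 0.827 over 6 pairs of groups), and the number coincides with the value scale, so the replicate block was fitted as an alternative.

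Members and gene lists were chosen with earlier results of these data known. Named were the 10 largest rises and falls of the averaged comparison with 4 pairs of one sign, the 4 largest of each single dose, up to 4 members of each list by p, and a fixed panel. Other called genes, members of the macrophage list and the interferon genes Ifit3, Oasl2 and Rsad2 were named after their values were seen. Some genes of the panel are not analysed here. Other alternatives were normalization, centring, an intensity filter, probe set averaging, each value scale alone and leaving out each sample.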

Additional observations from a re-analysis of the deposited data

How the results depend on the processing

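Of the 42 genes of the averaged comparison, 40 kept their direction in all 19 alternatives run, and Khdc1a and Tmsb15a in the 18 in which they were tested. The alternatives reuse the samples in which the 42 were called, and several, among them the blocked fits, give the same estimates. The kept direction is therefore no independent support. In the inhibitor groups the replicate number coincides with the value scale, so the correlated deviations cannot show pairing beyond that scale. With the replicate block and the 8 inhibitor samples, 440 genes passed on average, 1180 at 0.25 µM, 4 at 1 µM and 542 in the test of the change between doses, and with the block in all samples 127, 348, 1 and 17, and 3233 for IL-2 against untreated. Quantile normalization gave 140 and 299 on average and at 0.25 µM. Centring on the array median with no scale term gave 6, 8, and 783 for IL-2. Without the intensity trend 1 gene passed in the test of the change between doses. Within the high-intensity samples 0 genes passed on average, at 0.25 µM or for IL-2 (446, 727 and 1264 at an unadjusted p under 0.05, limma), and within the low-intensity samples 0, 0 and 962 (694 and 862 unadjusted for the inhibitors); these fits have fewer samples. Leaving out each sample in turn gave 17 to 29 genes on average, 5 to 67 at 0.25 µM, 0 to 2 at 1 µM and 0 to 1 for the change between doses. On average the count was 20 without JAK1 inhibitor 1 µM replicate 1, 17 without JAK1 inhibitor 0.25 µM replicate 2, 21 and 17 without JAK3 inhibitor 0.25 µM replicates 1 and 2, and 18 and 19 without JAK3 inhibitor 1 µM replicates 1 and 2. Over genes induced at least 4-fold, 49.7% of the IL-2 change was left at 0.25 µM of the JAK1 inhibitor and 7.57% at 1 µM. The cause of these shifts was not tested, and the number of arrays limits all of them.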

Other observations

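At 4 µM there was 1 sample of the JAK1 inhibitor and 2 of the JAK3 inhibitor, all in the low-intensity set, a comparison added after the data were seen. Gzmb stood at 6.89 with the JAK1 inhibitor, against 6.62 and 6.94 with the JAK3 inhibitor, and Ifit1 at 4.71, against 5.44 and 5.004. limma called 0 genes (532 at an unadjusted p under 0.05). All 12 genes lower on average at the matched doses were below 0 at 4 µM too (61.2% of all genes were), with a median of -0.50, and 20 of the 30 higher genes were above 0 (38.8% of all genes were), with a median of 0.07.

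The single sample at 0.0625 µM of the JAK1 inhibitor, also in the low-intensity set, kept 68.5% of the IL-2 change over the induced genes and 78.3% over the repressed genes. For type I interferon-stimulated genes the share was 67.0% and for NK cell receptors 83.6%.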
